A study of Mus musculus with 28 samples.

Results

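This account is about 390 chromatin regions of mouse macrophages where acetylation of histone H3 at lysine 27 (H3K27ac) was raised by corticosterone (Cort, the natural glucocorticoid of mice) and by dexamethasone (Dex, a synthetic one) while interleukin 4 (IL4) left it near the vehicle level. They were chosen by their own H3K27ac values, from 63313 H3K27ac peaks, of which 33059 reached the level the rule asks for. Levels are in CPM, a read count scaled to a common library total. A peak was selected on a mean of at least 3 CPM with both steroids and on a ratio over vehicle, with 0.5 CPM added to each mean, of at least 1.75 for both. Each Cort and Dex library also had to exceed the vehicle library of the same replicate number, and the IL4 ratio had to lie above 0.77 and below 1.3. The H3K27ac contrasts with vehicle are therefore given as a description, without a test.

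The cells were macrophages grown over 5 days, in L-cell conditioned medium, out of marrow from C57BL/6 male mice 8 to 10 weeks old. They received Cort at 500 nM, Dex at 100 nM, IL4 at 10 ng/ml or vehicle, for 24 h. For the vehicle libraries of H3K27ac no time is stated. H3K27ac was measured by chromatin immunoprecipitation and sequencing in 12 libraries, 3 for each group. The glucocorticoid receptor (GR) was measured in 15 libraries, 4 each for Cort, Dex and vehicle and 3 for IL4, in batches 1 and 2 with all IL4 libraries in batch 2. The labels do not say that replicates came from separate mice, so the p-values measure the spread between libraries, which may be technical.

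Glucocorticoids enter the cell and bind GR, which moves to the nucleus, binds DNA and recruits coactivators that acetylate histones. H3K27ac marks active enhancers and promoters, and in macrophages GR is known for raising genes that restrain inflammation and help the uptake of dying cells. IL4 works through another factor, STAT6, which drives alternative activation.

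H3K27ac counts in peaks ran from 6829787 to 15695771 for the 12 libraries, and GR counts from 900063 to 1981582 for the 15. In GR libraries 45.4 to 59.2% of the counts fell in 1 region. Cort replicate 4 had 415731 counts outside the most heavily read 1% of GR peaks, against 55958 to 145518 in the other libraries, and vehicle replicate 4 had a TMM (trimmed mean of M-values) factor of 0.392, the lowest of the 15. All 17 macrophage identity genes (such as Spi1 and Csf1r) had an H3K27ac peak of at least 3 CPM in vehicle within 50 kb. So did 1 of 8 fibroblast, 3 of 8 neutrophil, 2 of 8 lymphoid, 2 of 6 erythroid or megakaryocyte and 0 of 7 mast cell or basophil markers. Among the markers with no assigned peak were Col1a1, Col3a1, Pdgfra, Cd3e, Ly6g and Mpo. Dendritic cell markers (6 of 7) and osteoclast markers (7 of 8), many of which macrophages also use, did have such peaks. The summed level over the 29 peaks of the dendritic markers was 208 to 272 CPM with Cort, 229.8 to 256 CPM with Dex, 119 to 147 CPM with IL4 and 216 to 290.3 CPM with vehicle. In vehicle the sum was 212 to 253 CPM for the lymphoid list and 71.8 to 84.4 CPM for the erythroid or megakaryocyte list. It was 57.3 to 59.6 CPM for fibroblast and 11.0 to 19.1 CPM for neutrophil markers, against 6327 to 6518 CPM for the macrophage identity genes.

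Most of the regions lay away from gene starts. Of the 390 members, 217 (55.6%) overlapped a named protein-coding gene, 130 (33.3%) were within 50 kb of one and 43 (11.0%) were farther. Among all peaks at the same CPM level 69.3% overlapped a gene. A RefSeq promoter window, 250 bases before to 50 bases after a gene start on GRCm38.p6 (mm10), was overlapped by 24 members, or 6.15% with an exact binomial 95% interval of 3.98 to 9.02%. Over all peaks at that level the share was 22.8%. The median length was 1761 bp for members and 1871 bp for all peaks at that level.

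The promoter windows that members overlap are described because sequence was at hand for promoter windows alone. A member could overlap only part of a window, so some of the searched bases lie outside the members. Only the 250 bases before each start were searched, in 29 windows of 24 genes. The GR palindrome was spelled AGAACA, 3 bases of any kind, TGTTCT, and reads the same on both strands. It was found in 0 of the 29 windows, exactly or with 1 of its 12 letters different, against 8 of 9533 windows (0.0839%) in all peaks at the CPM level and 26 of 19878 (0.131%) of all windows with up to 1 letter different. The single GR site arm TGTTCT, searched on both strands, was in 4 of the 29 windows (13.8%), against 10.2% of the 9533 and 13.7% of the 19878. PU.1 (GGAAGT), the lineage factor of macrophages, matched in 8 of the 29 (27.6%), against 26.4% of the 9533. AP-1 (TGANTCA) and C/EBP (TTGCNNAA) matched in 1 window each (3.45%), against 4.25% and 7.52% of the 9533. The spaced STAT6 palindrome matched in 3 (10.3%, against 4.67%) and the NF-kB motif in 0, against 1.34%. All were searched on both strands, and matches of different motifs could overlap. A match is only a description of the letters. Capitals below mark TGTTCT or its reverse complement, and each line is the 250 bases before the start, written 5′ to 3′ along the gene. Cd300lf, an inhibitory receptor of myeloid cells, is shown because its window was the only one of the 29 that overlapped a GR peak. Ube2h, a ubiquitin-conjugating enzyme, is shown because its member holds 2 weak GR peaks next to the start. Ddit4, an inhibitor of the growth kinase complex mTORC1, and Tsc22d3, which encodes the glucocorticoid-induced leucine zipper GILZ, are shown as known steroid targets whose starts lie in members and hold no TGTTCT.
Cd300lf, chr11:115133993-115134242, minus strand: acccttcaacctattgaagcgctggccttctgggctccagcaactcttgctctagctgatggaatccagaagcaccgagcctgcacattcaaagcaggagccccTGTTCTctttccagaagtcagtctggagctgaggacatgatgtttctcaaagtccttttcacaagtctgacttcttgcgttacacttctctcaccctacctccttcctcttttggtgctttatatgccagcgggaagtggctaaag
Ube2h, chr6:30243804-30244053, minus strand: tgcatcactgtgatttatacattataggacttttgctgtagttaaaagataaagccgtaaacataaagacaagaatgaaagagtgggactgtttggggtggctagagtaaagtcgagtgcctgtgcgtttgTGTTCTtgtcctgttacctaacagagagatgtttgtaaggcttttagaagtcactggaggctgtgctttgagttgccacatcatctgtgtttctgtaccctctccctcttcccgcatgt
Ddit4, chr10:59951771-59952020, minus strand: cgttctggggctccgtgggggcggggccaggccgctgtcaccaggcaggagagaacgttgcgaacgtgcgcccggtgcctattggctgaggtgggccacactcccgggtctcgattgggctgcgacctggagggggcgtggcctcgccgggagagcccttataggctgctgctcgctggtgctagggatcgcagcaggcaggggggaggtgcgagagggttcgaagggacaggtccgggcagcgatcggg
Tsc22d3, chrX:140542669-140542918, minus strand: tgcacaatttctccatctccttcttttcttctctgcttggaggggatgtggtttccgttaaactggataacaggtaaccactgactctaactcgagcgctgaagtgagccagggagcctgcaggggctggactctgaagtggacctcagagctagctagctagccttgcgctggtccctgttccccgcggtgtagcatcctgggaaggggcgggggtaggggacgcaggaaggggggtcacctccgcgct

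Across the members the median of the 390 levels was 13.6, 11.0 and 12.4 CPM in the Cort libraries and 16.1, 12.9 and 16.6 CPM in the Dex libraries. It was 4.99, 4.06 and 4.20 CPM with IL4 and 5.23, 3.83 and 4.27 CPM with vehicle. All 6 steroid libraries lay above the other 6, and IL4 and vehicle libraries overlapped. The median log2 ratio over vehicle was 1.12 with Cort, 1.36 with Dex and -0.02 with IL4. A ratio of at least 2 with both steroids was reached by 251 members, of at least 4 by 42, of at least 8 by 9 and of at least 16 by 2. In 330 members every steroid library exceeded every vehicle library. The rule asks for most of this separation, and for the higher medians of the steroid libraries, so neither is evidence of a change. The matching count over all peaks at the CPM level is not given here. With IL4 the direction was mixed: the IL4 library exceeded the same-number vehicle library in all 3 pairs for 67 members, in 2 for 123, in 1 for 138 and in 0 for 62.

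**Figure D1:**
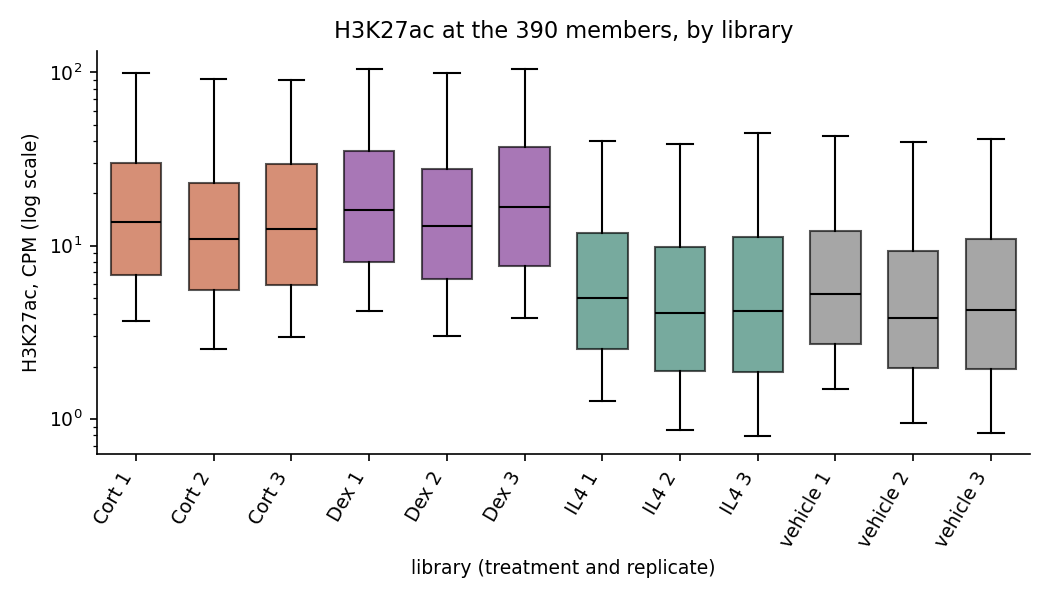
H3K27ac level (CPM, log axis) of the 390 members in each of the 12 libraries, by treatment and replicate. Boxes span the quartiles with the median as a line, and whiskers run from the 5th to the 95th percentile; medians are 11.0 to 16.6 CPM in steroid libraries and 3.83 to 5.23 CPM in IL4 and vehicle libraries.

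The rule's limits cut through a continuum. Just inside the steroid limit were members at Pptc7, Rnf150 and near Zfp53, with smaller ratios of 1.751, 1.752 and 1.753. Just outside were peaks at Lrrc8a and Fkbp15 and one far from Dab2, with 1.750, 1.749 and 1.747. At the upper IL4 limit Ldlrad3 (1.297), Myo10 (1.294) and Tns1 (1.293) were inside, and peaks near Tanc1 (1.3004), at Antxr2 (1.302) and at Dnmbp (1.306) outside. At the lower limit Ugt1a6b (0.772), Zc3h12c (0.773) and Wdr75 (0.773) were inside, and peaks nearest to Klf7 (0.7695), Jdp2 (0.769) and Chn2 (0.768) outside. Within 10% of the steroid limit there were 101 members above it and 196 other peaks below it.

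The region with the highest ratios lay between Trpm3, a cation channel gene, and Klf9, a Krüppel-like transcription factor known as a direct glucocorticoid target, at chr19:23055641-23058868. It had 64.6, 54.1 and 53.9 CPM with Cort and 87.9, 78.3 and 83.8 CPM with Dex, against 4.03, 2.29 and 0.956 CPM with vehicle. With IL4 it had 4.93, 1.56 and 1.67 CPM. The ratio was 19.8 with Cort, 28.7 with Dex and 1.101 with IL4, and no steroid library overlapped the others. A pair of members closer to Klf9, 14.9 and 25.8 kb from it, had ratios of 5.87 and 3.88 with Cort and 7.59 and 4.81 with Dex.

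The next region in order was upstream of Fkbp5, the HSP90 co-chaperone that lowers the affinity of GR for hormone, and is assigned to its neighbour Armc12, known from mouse sperm. At chr17:28521675-28526085 it had 108, 89.5 and 90.2 CPM with Cort and 121, 98.2 and 108 CPM with Dex, against 6.71, 3.87 and 2.74 CPM with vehicle. IL4 libraries had 6.19, 3.05 and 2.13 CPM. Its ratios were 19.5 with Cort, 22.2 with Dex and 0.869 with IL4. A longer member beside it, chr17:28509938-28520169, was the strongest of the pair in level, at 313, 268 and 294 CPM with Cort and 335, 296 and 300.4 CPM with Dex, against 28.3, 15.7 and 12.3 CPM with vehicle. The 3 Armc12 members lay 28.9 to 41.2 kb upstream of the Fkbp5 start by their centres. Fkbp5 itself held 2 members, one at its start (ratios 6.05 with Cort and 7.60 with Dex) and one 56.7 kb into the gene (4.70 and 5.01).

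Zbtb16, which encodes the BTB zinc finger transcription factor PLZF, held 5 members, all in the gene. The highest in ratio was chr9:48722671-48725109, with 31.8, 21.6 and 31.4 CPM with Cort and 41.8, 23.7 and 37.1 CPM with Dex, against 4.56, 1.03 and 0.637 CPM with vehicle. It had 3.03, 1.02 and 1.13 CPM with IL4. Steroid libraries did not overlap the others, at 11.2-fold with Cort and 13.5-fold with Dex. The 5 log2 ratios ran from 1.87 to 3.48 with Cort and from 2.40 to 3.75 with Dex.

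Tsc22d3 was nearest to 5 members too. Its start lay in chrX:140536577-140544600, which had 231, 179.6 and 242 CPM with Cort and 262, 202 and 256 CPM with Dex, against 83.9, 72.6 and 82.0 CPM with vehicle. IL4 libraries had 82.3, 92.0 and 98.3 CPM. The ratios were 2.73 with Cort, 3.01 with Dex and 1.14 with IL4, and the IL4 and vehicle values overlapped. A member 33.1 kb downstream of the start by its centre had a higher ratio, 4.67 with Cort and 4.96 with Dex.

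Ddit4 held a member over its start, chr10:59946748-59953412. It had 101, 60.9 and 111 CPM with Cort and 179.8, 88.8 and 184 CPM with Dex, against 18.7, 17.1 and 14.7 CPM with vehicle, and 16.9, 11.6 and 15.7 CPM with IL4. Each steroid library was above all vehicle and IL4 libraries. Further members lay 14.7 kb from Ddit4 (7.70-fold with Cort and 11.0-fold with Dex) and near Anapc16, a subunit of the anaphase-promoting complex (11.2-fold and 17.2-fold).

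Taking 1 region per gene, others among the 12 with the highest mean log2 ratio were near Sv2b (12.9-fold with Cort and 15.7-fold with Dex, 123 kb from the gene), in Ppp1r21 (10.3-fold and 13.97-fold), and 79.3 kb from Ncoa2, whose product is a coactivator of GR (9.22-fold and 11.3-fold). The rest of the 12 were near Ube2s, Drap1, Ubxn2b and Dock10, with ratios of 7.18 to 7.84 for Cort and 10.7 to 13.2 for Dex.

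Many members lay close to another. Within 100 kb of another member were 147 of the 390 (37.7%), in 54 runs, and the other 243 were alone. No matching share is given here for other sets of peaks, so the closeness is not shown to be particular to members. The longest run, on chromosome 9, held 7 members in 68.3 kb at Mpzl2, Mpzl3, Jaml and Scn2b; Jaml encodes a junctional adhesion molecule-like protein of leukocytes. Next came 6 members over 109.5 kb at Prps1 and Tsc22d3, then 5 each at Zbtb16 and at Fkbp5 with Armc12. Runs of 4 lay at Rtkn2 and Arid5b, at Fbxl5, Bst1 and Cd38, in Fmn1, near Lipg and in Rnf169; Bst1 and Cd38 encode enzymes that consume NAD. Within 50 kb, 287 genes had a member, 246 of them 1, 29 of them 2 and 12 of them 3 or more.

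The 12 genes with at least 3 members were Tsc22d3 and Zbtb16 with 5, Fmn1, Jaml and Rnf169 with 4, and Arid5b, Armc12, Cd163, Jdp2, Klf13, Tenm4 and Tigd2 with 3. At Jaml the strongest was chr9:45111123-45114826, with 71.2, 37.3 and 72.7 CPM with Cort and 104, 56.6 and 97.4 CPM with Dex, against 15.3, 7.89 and 9.24 CPM with vehicle. Jaml had 9.48, 6.02 and 9.66 CPM there with IL4, and replicate 2 was the lowest in every group. Fmn1, which encodes an actin-nucleating formin, went the other way: its member chr2:113642509-113648293 had 70.4, 134 and 66.3 CPM with Cort and 84.2, 148 and 93.6 CPM with Dex, against 28.0, 48.6 and 32.6 CPM with vehicle, with replicate 2 highest in each of these groups. Jdp2, a repressor of AP-1 sites, held a member over its start with ratios of 2.63 for Cort and 2.65 for Dex.

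**Figure D2:**
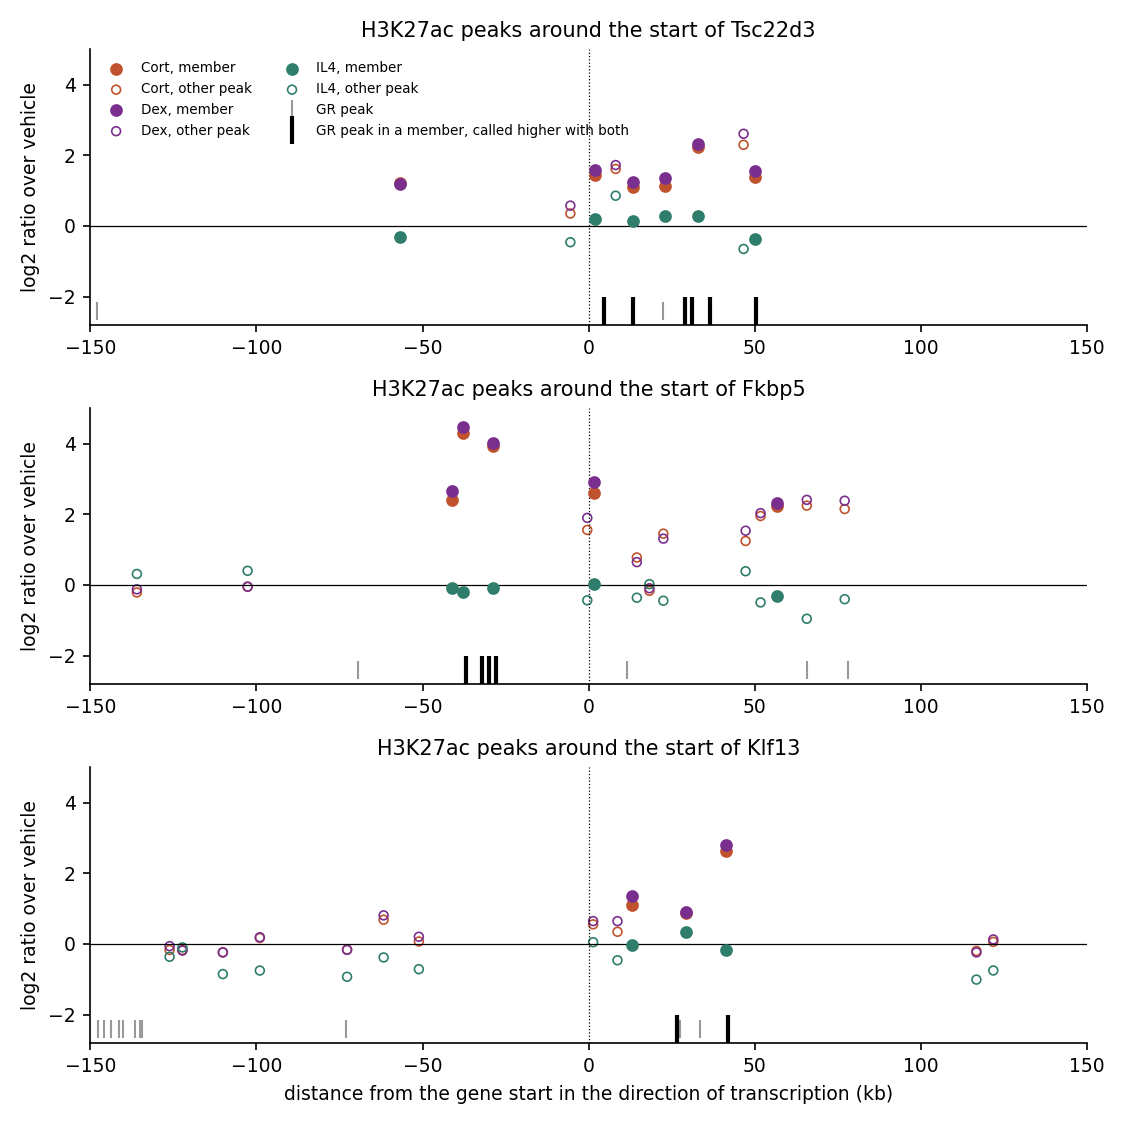
Log2 ratio over vehicle with Cort, Dex and IL4 (colours) of the H3K27ac peaks at the CPM level within 150 kb of the Tsc22d3, Fkbp5 and Klf13 starts, by distance of the peak centre from the start in kb in the direction of transcription. Filled points are members (6, 5 and 3) and open points other peaks; ticks at the bottom are GR peaks (8, 8 and 13), thick where a GR peak in a member was higher with both steroids (6, 4 and 2).

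Genes known as glucocorticoid-induced held 25 members, at 10 of the 31 genes listed: Cd163, Ddit4, Fkbp5, Glul, Klf9, Mertk, Per1, Tns1, Tsc22d3 and Zbtb16. That was 20.0% of the 125 peaks near these genes at the CPM level, against 1.15% of all peaks with a gene within 50 kb. The list was written with earlier results of these data known, so its count is not independent evidence. Over the 125 peaks the median log2 ratio was 0.33 with Cort, 0.44 with Dex and -0.20 with IL4, against -0.01, 0.00 and -0.08 over all 33059 peaks at that level.

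Per1, a repressor of the circadian clock, had 225, 216 and 216 CPM with Cort and 234, 275 and 205 CPM with Dex, against 109, 97.1 and 84.5 CPM with vehicle, in the member over its starts. Its IL4 libraries had 94.7, 92.2 and 95.2 CPM, within the range of vehicle. Per1 was the only gene of the 16 on the circadian list that held a member, which was 2.86% of the list's 35 peaks at the CPM level. Glul, glutamine synthetase, was close to the limit of the rule at 1.76-fold with Cort and 1.92-fold with Dex, and its member also covers the hairpin gene Mir8114.

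Of the genes for phagocytosis and scavenging 3 of 24 held members (6 in all). These were 5.66% of the list's 106 peaks at the CPM level, against 1.15% of all peaks with a gene within 50 kb. Mertk and Cd163 are also on the glucocorticoid-induced list, so the count is not separate from that one. Mertk, a receptor kinase that recognises dying cells, had 201, 199 and 219 CPM with Cort and 199, 196 and 219.7 CPM with Dex, against 80.8, 85.8 and 92.4 CPM with vehicle, at chr2:128743557-128754460. The Mertk values with IL4 were 74.96, 61.9 and 71.5 CPM, below each vehicle library, for an IL4 ratio of 0.806. Cd163, the receptor for haemoglobin bound to haptoglobin, held 3 members with log2 ratios of 1.26 to 1.64 for Cort and 1.38 to 1.79 for Dex, and Itgb5, an integrin chain, held 1.

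Krüppel-like, bZIP and STAT factors had members at 2 of 23 genes, Klf9 with 2 and Klf13 with 3. They were 4.85% of the list's 103 peaks at the CPM level. Klf13 held the longest member, 16314 bp, with 448, 442 and 540.3 CPM with Cort and 466, 452 and 546 CPM with Dex, against 272, 239 and 273 CPM with vehicle. Its IL4 libraries, at 309, 334 and 350.1 CPM, also lay above every vehicle library, at a ratio of 1.27 that is still within the rule. Stress and fuel genes held 4 members (Ddit4, Glul and Sesn2, of 15 genes), 9.30% of the list's 43 peaks at that level. Of genes that restrain inflammation, 1 of 17, Tsc22d3, held members, 5.62% of the list's 89 peaks. Klf9, Ddit4, Glul and Tsc22d3 are also on the glucocorticoid-induced list, so these counts are not separate from that one. Of the 29 IL4 and STAT6 targets 1 held a member, the H3K27 demethylase Kdm6b. None of the 14 genes for the receptor and its cofactors, 20 inflammatory, 20 lipid, 17 macrophage identity or 11 housekeeping genes had a member within 50 kb. These lists had 65, 50, 86, 90 and 16 peaks at the CPM level, so that 0 members is near the background of 1.15%, as is the 1.06% of the IL4 and STAT6 list.

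Among markers of other cells, Flt3, the receptor kinase of progenitors and dendritic cells, held 2 members, and no other gene of the dendritic, fibroblast, neutrophil, lymphoid, mast cell, erythroid or osteoclast lists held one. The 2 were 13.3% of the 15 dendritic marker peaks at the CPM level, against 1.15% of all peaks with a gene within 50 kb. The Flt3 member with the higher ratios, chr5:147392209-147393948, overlapped no GR peak. It had 13.9, 8.21 and 14.4 CPM with Cort and 22.5, 8.88 and 21.3 CPM with Dex, against 1.88, 1.58 and 1.40 CPM with vehicle. With IL4 Flt3 had 2.02, 1.48 and 1.13 CPM, overlapping vehicle. The part of dendritic cells in this result was not tested.

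GR was measured in separate libraries that the rule did not use. Of the 390 members 178 overlapped at least 1 GR peak by at least 1 bp, which is 45.6% with an exact binomial 95% interval of 40.6 to 50.7%, over peaks and for counting error alone. The share was 10.3% among the other 32669 peaks at the CPM level. It was 32.9% of 304 peaks raised by the steroids and by IL4 (an IL4 ratio of 1.3 or more) and 49.2% of 266 peaks raised by the steroids and lowered by IL4 (0.77 or less). In all, 168 members held 1 GR peak, 7 held 2 and 3 held 3.

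Longer members held GR peaks more often at each step of length. Among other peaks the share was lower from 1 to 2 kb than up to 1 kb, and higher above 2 kb. Up to 1 kb the share was 14.9% of 47 members and 5.96% of other peaks at the CPM level, from 1 to 2 kb it was 32.2% of 180 and 4.56%, from 2 to 4 kb 66.1% of 118 and 11.7%, and over 4 kb 77.8% of 45 and 29.0%. In each length class the exact intervals of members and other peaks did not overlap except up to 1 kb, where the interval of members, 6.20 to 28.3%, reached into that of the others, 5.18 to 6.82%. By H3K27ac change, GR peaks were in 35.3% of 85 members with a mean log2 ratio below 1, 36.2% of 188 from 1 to 1.5, 60.7% of 56 from 1.5 to 2 and 75.4% of 61 at 2 or more.

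**Figure D3:**
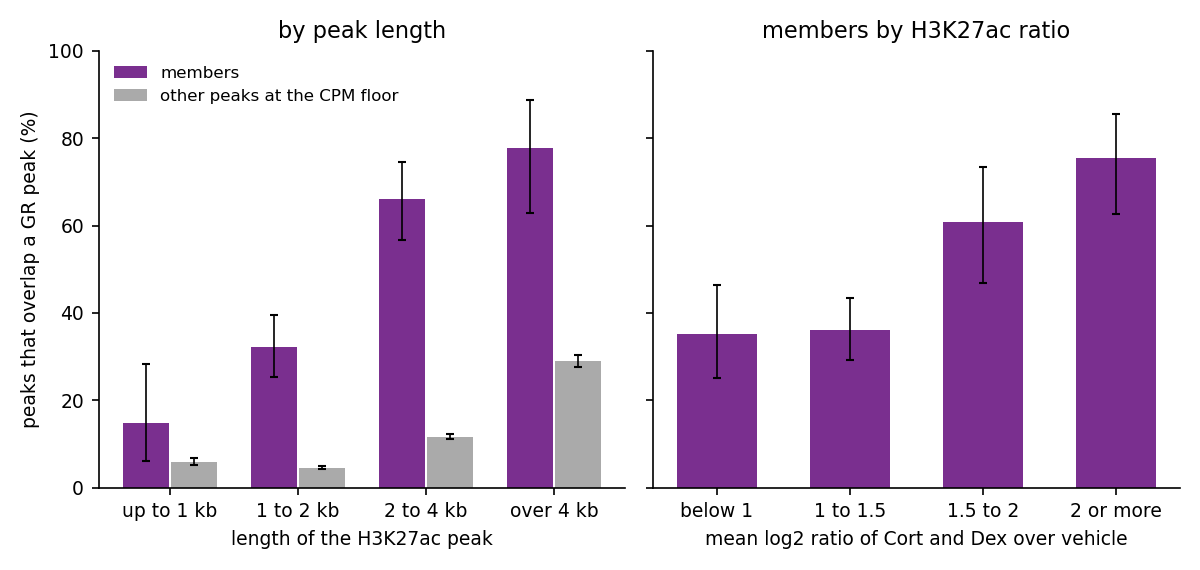
Share (%) of H3K27ac peaks that overlap a GR peak, for members and for other peaks at the CPM level by peak length (left), and for members by the mean log2 H3K27ac ratio of Cort and Dex over vehicle (right). Bars are shares with exact binomial 95% intervals; in members the share goes from 14.9% to 77.8% with length and from 35.3% to 75.4% with the ratio.

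At most GR peaks in members, GR signal was higher with each steroid. There were 191 such GR peaks, and 184 had enough reads to be tested. GR rose with Cort at 116 of the 184 and fell at 0, by edgeR's quasi-likelihood test with batch in the model, calling an adjusted p (Benjamini-Hochberg) below 0.05. Across the 5183 tested GR peaks the shares called were 12.8% higher and 14.8% lower with Cort. With Dex GR rose at 132 and fell at 0 of the 184, where over all tested peaks 14.7% were called higher and 15.6% lower. Since a peak can pass the filter on low counts through its high group alone, the fit was also made without the filter: GR then rose at 108 of the 191 with Cort and 136 with Dex, where over all 8394 peaks the shares called higher were 7.14% with Cort and 10.4% with Dex.

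The median log2 change over the 184 was 1.48 with Cort and 1.71 with Dex. Over all tested peaks it was 0.17 with Cort and -0.12 with Dex, and this overall median moved to 0.05 and -0.22 with DESeq2 size factors and to 0.96 and 0.86 with total-count scaling. Members' medians under those scalings were 1.36 and 1.61, and 2.30 and 2.73. GR was called higher with both steroids at 114 peaks, with Cort alone at 2, with Dex alone at 18 and with neither at 50. Both comparisons share the vehicle libraries. The matching shares over all tested GR peaks are not given here. Of the GR peaks in other H3K27ac peaks at the CPM level 16.5% of 3166 were called higher with Cort and 18.9% with Dex.

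The median GR level over the 191 peaks, in TMM-scaled CPM, was 13.9, 15.8, 12.4 and 13.5 in the Cort libraries and 16.6, 16.5, 16.1 and 18.1 in the Dex libraries. It was 4.78, 6.02 and 6.02 in the IL4 libraries and 4.25, 5.57, 4.45 and 6.46 in the vehicle libraries. Every steroid library lay above every IL4 and vehicle library. The other tested GR peaks had medians of 6.78 to 7.88 with Cort, 6.51 to 7.76 with Dex, 6.02 to 6.84 with IL4 and 5.17 to 7.80 with vehicle, so that the vehicle levels at members overlapped those elsewhere.

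**Figure D4:**
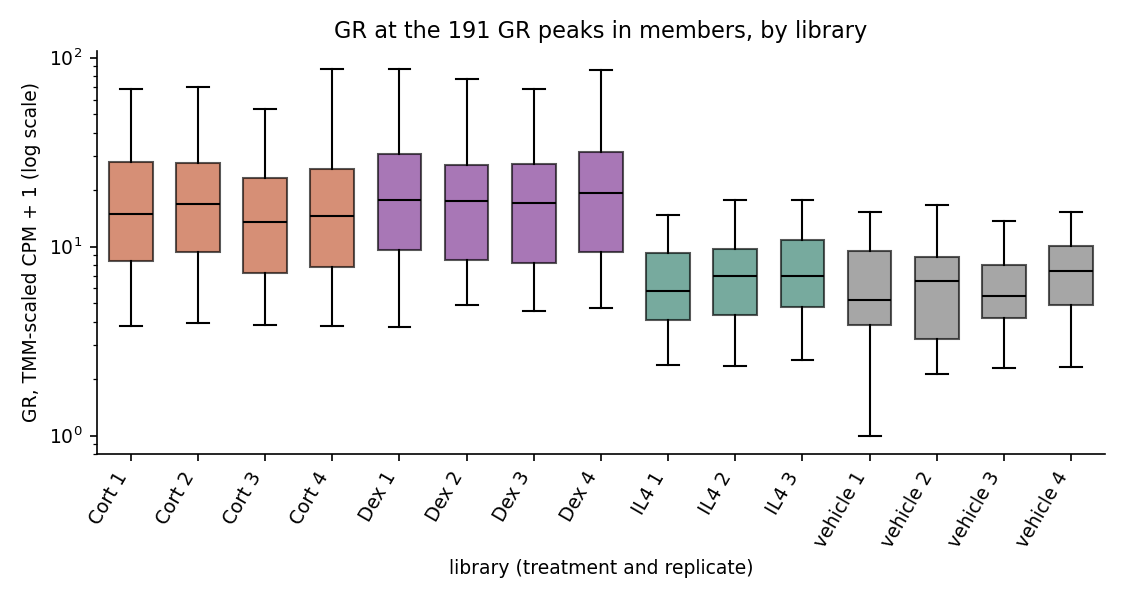
GR level (TMM-scaled CPM plus 1, log axis) at the 191 GR peaks in members, in each of the 15 GR libraries. Boxes span the quartiles with the median as a line and whiskers the 5th to 95th percentiles; before adding 1 the medians are 12.4 to 18.1 in steroid libraries and 4.25 to 6.46 in IL4 and vehicle libraries.

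IL4 changed GR at 0 of the 184 peaks, and at 0.0% of all 5183, by edgeR's quasi-likelihood test. At an unadjusted p under 0.05, 11 of the 184 (5.98%) were higher and 2 (1.09%) lower, near or below the 4.86% higher and 6.95% lower of all 5183, and DESeq2 also called 0. The median log2 change with IL4 was 0.19 over the 184 and -0.10 over all 5183. Above 0 were 120 of the 184, a count not given here for all tested peaks. All IL4 libraries are in batch 2, so this comparison rests on the vehicle libraries of that batch and on the batch difference of the other groups. In batch 2 alone no GR peak in a member was called with Cort or Dex either, nor was any of the 4714 tested there (0.0% for each). At an unadjusted p under 0.05, 83 of 176 (47.2%) were higher with Cort in batch 2, beside 19.3% of all, and 113 (64.2%) with Dex, beside 12.1%. In batch 1 alone 115 of 169 were called higher with Cort and 119 with Dex, beside 16.3% and 16.5% of the 3975 tested there. With Cort 1 was called lower in batch 1, beside 13.5% of all.

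The GR peaks of members with the smallest p lay near Uox, Trpm3, Zbtb16, Klf13, Rnf169, Cdkn2aipnl, Kpna2, Armc12, Dhx9 and Mertk. The Zbtb16 peak, chr9:48723543-48724003, had 108, 118, 81.4 and 85.5 TMM-scaled CPM with Cort and 141, 138, 91.7 and 118 with Dex, against 8.49, 8.92, 6.35 and 14.2 with vehicle. Its IL4 libraries had 4.78, 13.4 and 10.5. Steroid values did not overlap the others, and the log2 change was 3.35 ± 0.35 (SE) with Cort (edgeR adjusted p = 4.69e-05) and 3.67 ± 0.35 with Dex (edgeR adjusted p = 2.28e-05).

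The Klf13 peak, chr7:63896854-63897283, was the most occupied of these 10, with 186, 164, 118 and 194 TMM-scaled CPM with Cort and 204, 179, 158 and 195 with Dex, against 11.3, 15.6, 15.2 and 23.3 with vehicle. The Klf13 log2 change was 3.34 ± 0.34 (SE) with Cort and 3.49 ± 0.34 with Dex, with edgeR adjusted p of 4.33e-05 and 2.39e-05. Steroid and vehicle libraries did not overlap.

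Between Trpm3 and Klf9, GR at chr19:23056835-23057211 had 99.6, 93.5, 60.5 and 91.7 TMM-scaled CPM with Cort and 129, 91.1, 75.01 and 115 with Dex, against 5.66, 3.34, 4.45 and 7.75 with vehicle. The log2 change was 4.01 ± 0.39 (SE) with Cort and 4.27 ± 0.40 with Dex. This is the GR peak inside the member with the highest H3K27ac ratio. The Armc12 member with the highest level held 3 GR peaks, of which chr17:28513718-28514099 had 151, 116, 104 and 159.8 with Cort and 141, 116, 113 and 163 with Dex, against 11.3, 14.5, 6.99 and 15.5 with vehicle. Its log2 changes, 3.47 with Cort and 3.47 with Dex, had edgeR adjusted p of 5.3e-05 and 3.67e-05.

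At Mertk, GR at chr2:128746531-128746839 had 58.4, 47.3, 38.4 and 47.3 TMM-scaled CPM with Cort and 67.1, 53.3, 40.5 and 50.2 with Dex, against 7.08, 10.0, 5.08 and 9.05 with vehicle. The change was 2.62 ± 0.30 (SE) with Cort and 2.75 ± 0.30 with Dex on the log2 scale. A weaker GR peak in the same member, centred under 1 kb away, did not pass (0.04 and 0.35, edgeR adjusted p = 0.942 and 0.457). This member thus holds 1 GR peak that was called and 1 that was not.

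At the clock gene Per1, GR at chr11:69099265-69099591, close to a start, had 86.2, 73.8, 60.5 and 91.7 with Cort and 94.3, 85.3, 60.7 and 96.2 with Dex, against 11.3, 15.6, 5.72 and 15.5 with vehicle, in TMM-scaled CPM. The log2 change was 2.72 with Cort (edgeR adjusted p = 0.000275) and 2.82 with Dex (edgeR adjusted p = 0.000141). In the Tsc22d3 run 7 GR peaks lay in 5 members, the Prps1 one included, and the one with the smallest p, chrX:140513382-140513747, had log2 changes of 3.58 with Cort and 3.62 with Dex. The GR peaks at Glul and Anapc16 also passed, with 1.62 and 2.71 for Cort and 1.67 and 3.09 for Dex.

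Some members held a GR peak that did not pass. The GR peak of Flt3 lay in its member with the lower ratios, chr5:147388407-147390163. It had 6.02, 8.37, 6.21 and 5.63 TMM-scaled CPM with Cort and 4.44, 4.85, 5.36 and 4.18 with Dex, against 4.25, 8.92, 5.72 and 5.17 with vehicle. The groups overlapped. The log2 change was 0.10 with Cort and -0.37 with Dex (edgeR adjusted p = 0.853 and 0.445). GR peaks in members near Klf9, at Tns1 and near Cd163 did not pass either, with changes of -0.01, 0.42 and 0.82 for Cort and 0.45, 0.64 and 0.76 for Dex. At the Cd300lf start, whose sequence is printed above, GR had 25.5, 26.2, 26.8 and 30.7 with Dex against 18.4, 12.3, 13.97 and 5.17 with vehicle, a log2 change of 1.11 (edgeR adjusted p = 0.0251). With Cort the Cd300lf peak had 16.2, 16.2, 31.6 and 23.6 and did not pass (0.78, edgeR adjusted p = 0.113). Neither of the Ube2h GR peaks had enough reads to be tested.

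Members whose GR peak was called higher with Cort or Dex, 126 in all, had median H3K27ac log2 ratios of 1.39 with Cort and 1.78 with Dex. A count to match the 126 is not given here for other H3K27ac peaks. The 52 with a GR peak that was not called had 0.98 and 1.19, and the 212 with none had 1.03 and 1.22. Members with a called GR peak were also longer, at a median of 2527 bp, against 2072.5 bp without a call and 1438 bp with no GR peak. Over the 172 members with a tested GR peak, the H3K27ac and GR log2 changes had a Pearson r of 0.52 and a Spearman rho of 0.48 with Cort, and 0.55 and 0.53 with Dex. These are descriptions across regions that share their libraries, and the rule bounds the H3K27ac ratio from below. Of the 212 members without a GR peak, 82 had one within 10 kb and 152 within 50 kb, at a median distance of 16.2 kb, and 60 lay in a run with a member that had one. The same distances are not given here for other peaks, so nearness to GR is not shown to be particular to members.

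The steroids were given at different doses, 100 nM Dex and 500 nM Cort, so their difference is that of these treatments. H3K27ac differed between Dex and Cort at 0 of the 390 members and at 0.0% of the 59881 tested peaks, by edgeR's quasi-likelihood test with Benjamini-Hochberg adjustment. With the replicate number as a block, and with DESeq2, the count was also 0. At an unadjusted p under 0.05, 25 members (6.41%) were higher with Dex and 0 lower, beside 452 higher and 341 lower of all tested peaks (1.32% together). With the block 102 members (26.2%) were higher and 0 lower, beside 1168 higher and 1125 lower of all (3.83%). The Dex and Cort libraries compared here are those that chose the members, so these counts, and the differences of members beside all peaks, are a description and support nothing. The median log2 difference, Dex minus Cort, was 0.23 over members and 0.00 over all tested peaks, and 360 of the 390 were above 0 against 50.0% of all. In the 3 same-number pairs the members' medians were 0.20, 0.17 and 0.25, against 0.01, -0.01 and -0.01 over all peaks at the CPM level.

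The members with the largest difference were at Nt5c2, a cytosolic nucleotidase, near Mkrn1, a ubiquitin ligase, in Foxp1, a forkhead transcription factor, and in Myrip, a linker of myosin to organelles. Nt5c2 had 16.9, 10.9 and 15.5 CPM with Dex, against 6.59, 5.16 and 6.28 CPM with Cort. The Dex and Cort values of Nt5c2 did not overlap, and the log2 difference was 1.26 ± 0.32 (SE), with an edgeR adjusted p of 1.00 and of 0.254 with the block, the smallest of any member. Mkrn1, Foxp1 and Myrip had 1.15, 1.03 and 0.91. At the other end Olfr164, Pag1, Susd6 and Arhgef3 had -0.25, -0.16, -0.11 and -0.11. For 240 members (61.5%) the 95% interval of the difference, from its SE and 8 degrees of freedom (12 libraries less 4 groups), lay within 1 of 0 on the log2 scale, beside 57.0% of all peaks, so for the other members the interval reaches past a 2-fold difference. That fit leaves out the pairing of the libraries. With the replicate block and 6 degrees of freedom the interval lay within 1 of 0 for 337 members (86.4%), beside 65.4% of all peaks.

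**Figure D5:**
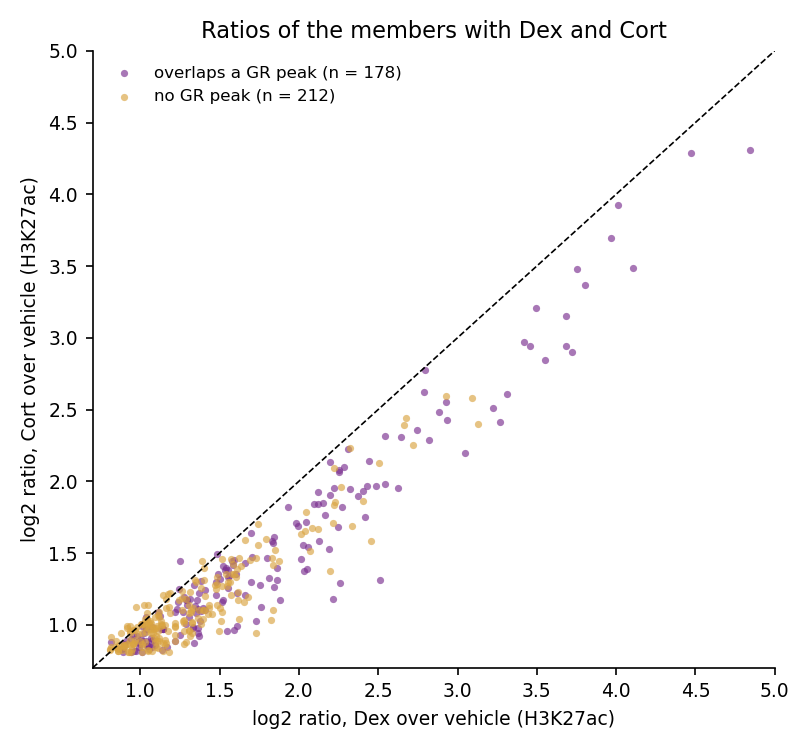
Log2 ratio of H3K27ac over vehicle with Dex (horizontal) and Cort (vertical) for each of the 390 members, coloured by whether it overlaps a GR peak (178) or not (212). The dashed line marks equal ratios; most points lie below it, and both axes share the vehicle libraries and begin at the limit of the rule.

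GR was called different between Dex and Cort at 0 of the 184 peaks by edgeR's test (0.0% of all 5183), and DESeq2 called 0. At an unadjusted p under 0.05, 6 of the 184 (3.26%) were higher and 1 (0.543%) lower with Dex, beside 1.196% higher and 7.83% lower of all 5183. The share lower over all peaks differed by batch. In batch 1 alone 1.18% of 3975 were higher and 0.83% lower, and in batch 2 alone 1.12% of 4714 and 17.9%. Members had 2.96% higher and 0.592% lower in batch 1, and 2.84% and 0.568% in batch 2. The cause was not tested. With both batches the median difference was 0.20 over the 184 and -0.01 over all. Above 0 were 144 of the 184, a count not given here for all 5183. The median SE of these differences was 0.33. At the Klf13 and Zbtb16 peaks named above the Dex minus Cort difference in GR was 0.15 ± 0.30 and 0.32 ± 0.31 (SE).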

How the data were processed

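The authors deposited raw read counts per peak, over 1 peak set for all libraries of an assay. Per the submitters' processing notes, the tools were featureCounts, MACS2, Bowtie2, fastp and SAMtools and the build mm10; versions are not given in the sources used here, nor is how peaks were merged or what the column named filtered records. Per the labels' protocols, GR chromatin was crosslinked by disuccinimidyl glutamate plus formaldehyde, and H3K27ac chromatin by formaldehyde alone. Columns headed C were matched to vehicle by elimination; the input library was not analysed here.

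Members were found from CPM by the rule given at the opening. The members and the gene lists were chosen with earlier results of these data known. Counts were tested in R 4.3.3 with edgeR 4.0.16 (filterByExpr by group, TMM, quasi-likelihood F test) in 1 fit per assay over all its libraries, the GR fit having a batch term, and adjusted over all tested peaks. The SE is the absolute log2 change over the square root of F. DESeq2 1.42.0 was the alternative test. The edgeR fit was checked on simulated counts, drawn with a fixed spread and with neither batch differences nor paired libraries. That check does not cover these features of the data. Libraries were scaled on reads in peaks, so each change is relative to the other peaks; fewer cells of a type and less signal per cell cannot be told apart. Depth limits weak GR peaks most.

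Genes were the nearest of 19939 named protein-coding genes of RefSeq GRCm38.p6, by gene span. Promoter sequences are RefSeq's, of the same build; no genome was used here, so the motif search covered promoter windows and not whole peaks. Genes in the text are the 12 highest mean ratios (1 member per gene), listed steroid-induced genes, the 10 smallest GR p, the 4 highest and lowest Dex minus Cort differences, genes with 3 or more members and genes of other lists; Cd300lf, Ube2h, Jaml's replicate pattern and the GR peaks of steroid-induced genes were named after their values were seen. Same-number H3K27ac libraries deviated together (r 0.268 to 0.678 in 18 pairs, -0.449 to 0.0406 in the other 36). The main H3K27ac fit left this pairing out, and only the fit with the replicate block took it in. Same-number GR libraries (-0.197 to 0.187) were not taken as paired in the main GR fit.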

Additional observations from a re-analysis of the deposited data

Results flagged for a closer look

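Of 36 groups of 4 GR libraries examined for a sample far from the others, 1 stood out, where chance gives about 1 in 20. At the GR peak of the member near Uox, the gene of urate oxidase, Dex replicate 3 had 92.9 TMM-scaled CPM, against 121, 119.7 and 122 in Dex replicates 1, 2 and 4. It remained above the 4 vehicle libraries, at 14.2, 16.7, 9.53 and 15.5, and leaving out Dex replicate 3 did not end the call at this peak.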

How the results depend on the processing

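The member count, 390, moved beyond 1.5 times only with a steroid ratio of at least 2, which left 251. The other changes of the rule gave 267 to 513, and leaving out each library 333 to 501. A similar count did not mean the same members. Without vehicle replicate 2, 260 of the 341 members were among the 390, and without vehicle replicate 1, 312 of the 501. Under these member rules the share with a GR peak ran from 36.6% with no CPM floor to 52.7% with a floor of 6 CPM. The share with a GR peak, 45.6%, was 33.6% with GR peaks marked filtered TRUE alone (3.97% of other peaks), and 44.1 to 47.4% under other overlap rules. The counts of GR peaks in members higher with Cort (116) and Dex (132) were 0 and 0 in batch 2 alone (the cause was not tested); under the other alternatives they were 105 to 162 and 119 to 174, and leaving out 1 library gave 95 to 123 and 120 to 136. IL4 against vehicle and Dex against Cort gave 0 calls in every alternative run, leaving out each library included (0 to 0). Same-number GR libraries share only a number: with the replicate block 125 and 133 GR peaks were higher, and 1 was lower with Cort. One was also lower with Cort in DESeq2, in batch 1 alone and without Cort replicate 4. The replicate block changed no H3K27ac call (0). The 10 GR peaks with the smallest p kept their call except in batch 2 alone. Dex minus Cort differences of H3K27ac, none called, changed sign when single libraries were left out: from -0.80 to 0.16 at Olfr164 (0.07 also above 0), from -0.35 to 0.046 at Pag1, from -0.29 to 0.075 at Susd6 (0.01 also above 0) and from -0.27 to 0.038 at Arhgef3 (0.03 also above 0); the cause was not tested. Depth limits the 7 GR peaks with too few reads to test.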

Other observations

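The start regions of genes with a nearby member were described apart from the members. Of such genes 154 had a promoter window under 166 H3K27ac peaks at the CPM level that were not members. Their median log2 ratio was 0.18 with Cort, 0.24 with Dex and 0.01 with IL4, against 0.01, 0.02 and -0.01 for the other 7332 promoter peaks. These ratios come from the libraries, vehicle included, that chose the members, so they are a description and not independent evidence. Of the 166, 9 had a ratio of at least 1.75 with both steroids without meeting the rest of the rule, and of the 7332, 29.

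At some members 1 replicate number stood above the others in the steroid libraries. At Dock10, an activator of small GTPases, replicate 2 had 78.5 CPM with Cort and 98.8 CPM with Dex, against 30.7 and 23.0 CPM with Cort and 44.3 and 38.1 CPM with Dex in replicates 1 and 3. With vehicle the 3 Dock10 values were 6.58, 6.32 and 2.68 CPM. The Fmn1 member at chr2:113633754-113638995 had 51.8 CPM with Cort and 54.7 CPM with Dex in replicate 2, against 12.1 to 17.8 CPM in the other steroid libraries, and its vehicle value in replicate 2, 15.6 CPM, was also above the others, 8.72 and 4.59 CPM.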
